A study of Homo sapiens with 48 samples.

Results

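The genes described here encode BiP, the Hsp70 chaperone of the endoplasmic reticulum (ER), and the proteins that work beside it. Members were chosen by symbol from a list of 10 names, and all 10 were found among the 25066 genes of the count table: HSPA5, HSP90B1, HYOU1, DNAJB9, DNAJB11, DNAJC3, DNAJC10, SDF2L1, ARMET (the older name of MANF) and CRELD2. All 10 had enough reads to be tested, within a set of 13881 tested genes. The libraries were made from TMD8 and HBL1, established human lymphoma lines of the type called diffuse large B cell lymphoma, in its activated B cell-like form, and both had been engineered with Cas9, in every library, controls included. For 3, 6 or 24 h, cells received NGI-1 at 5 µM, acalabrutinib at 50 nM, copanlisib at 20 nM or the vehicle DMSO. Each of the 24 combinations of line, compound and time had 2 libraries, 48 in all. Each disease model here is a single line, and the kinase inhibitors and NGI-1 were each given at a single dose. The labels number the 2 replicates of a group and do not say whether each was its own culture. The p-values therefore cover the spread between these libraries alone, which may be technical.

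BiP binds unfolded stretches of proteins entering the ER and releases them in a cycle driven by ATP. J proteins (DNAJB9, DNAJB11, DNAJC3 and DNAJC10) bring substrates to BiP and start ATP hydrolysis, and the exchange factor HYOU1 resets the cycle. HSP90B1, also called GRP94, takes over some BiP clients for later folding. When unfolded proteins accumulate, BiP leaves the sensors IRE1, PERK and ATF6, and the factors they release raise transcription of many of these genes, a programme called the unfolded protein response. NGI-1 inhibits oligosaccharyltransferase, the ER enzyme that attaches N-glycans to new proteins. Acalabrutinib inhibits BTK and copanlisib inhibits PI3K, kinases that carry the signal of the B cell receptor.

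The ER stress element is a known binding site for ATF6 together with NF-Y, and it is shown here because these genes moved together after NGI-1. It was searched for as CCAAT, a gap of 9 bases, then CCACG, and in its second form as ATTGG, a gap of 1 base, then CCACG, on both strands from 250 bases before to 50 bases after the RefSeq start (GRCh38.p14). At least 1 of the 2 forms was present in 5 of the 10 genes, against 46 of 35116 windows of the same length (0.131%), which include those 5. In the sequences below, written 5′ to 3′ on the strand that carries the motif, capitals mark its fixed letters. HSPA5, HSP90B1 and CRELD2 held the first form and HYOU1 and SDF2L1 the second.
HSPA5 (chr9:125241391-125241409, minus strand, 66 to 48 bases before the start): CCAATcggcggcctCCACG
HSP90B1, first match (chr12:103930216-103930234, plus strand): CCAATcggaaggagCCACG
HSP90B1, second match (chr12:103930321-103930339, minus strand, opposite to the gene): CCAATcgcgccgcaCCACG
CRELD2 (chr22:49918554-49918572, minus strand, opposite to the gene): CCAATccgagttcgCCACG
HYOU1, both matches (chr11:119057380-119057390 and chr11:119057274-119057284, plus strand, opposite to the gene): ATTGGaCCACG
SDF2L1 (chr22:21642114-21642124, minus strand, opposite to the gene): ATTGGtCCACG
The matches of HSPA5 and the nearer ones of HSP90B1, CRELD2 and HYOU1 lay 66 to 48, 89 to 71, 80 to 62 and 79 to 69 bases before the start. The match of SDF2L1 lay 188 to 178 bases before it.

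The 250 bases before the starts of HSPA5 and HYOU1 are printed whole, on the strand of the gene, to show the context of these letters. HSPA5 had the largest change of the 10 genes at 3 and 6 h, and HYOU1 has a pair of matches. Whether the distance of a match goes with the size of the change was not tested. Capitals mark the fixed letters of the element, which in HYOU1 lies on the other strand and so reads as its reverse complement.
HSPA5 (chr9:125241344-125241593, minus strand): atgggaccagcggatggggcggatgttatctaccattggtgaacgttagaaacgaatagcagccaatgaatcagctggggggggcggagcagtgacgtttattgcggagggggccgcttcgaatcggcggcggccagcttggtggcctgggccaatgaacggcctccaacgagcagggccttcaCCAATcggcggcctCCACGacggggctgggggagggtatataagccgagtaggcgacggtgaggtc
HYOU1 (chr11:119057206-119057455, minus strand): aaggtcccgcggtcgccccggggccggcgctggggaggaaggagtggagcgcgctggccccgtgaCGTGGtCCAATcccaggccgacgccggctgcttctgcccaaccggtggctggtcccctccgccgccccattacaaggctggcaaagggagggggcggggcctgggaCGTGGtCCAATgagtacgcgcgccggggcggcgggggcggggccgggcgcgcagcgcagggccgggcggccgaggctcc
The core bound by XBP1 and ATF6, searched for as TGACGTG followed by A or G, was present in HYOU1 and DNAJC10 and in 1.18% of all windows. In HYOU1 it overlapped the farther element, since its 8 bases began 188 bases before the start and the element began at 185. The composite site of C/EBP and ATF factors, searched for as TGATG, any base, then AA, was in none of the 10 windows and in 3.62% of all. DNAJB9, DNAJB11, DNAJC3 and ARMET held no match in their windows, which says nothing of sites elsewhere. Matches had to be exact in the fixed letters. Copies with other letters, in these windows or in those of the other members, were not searched for.

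**Figure D1:**
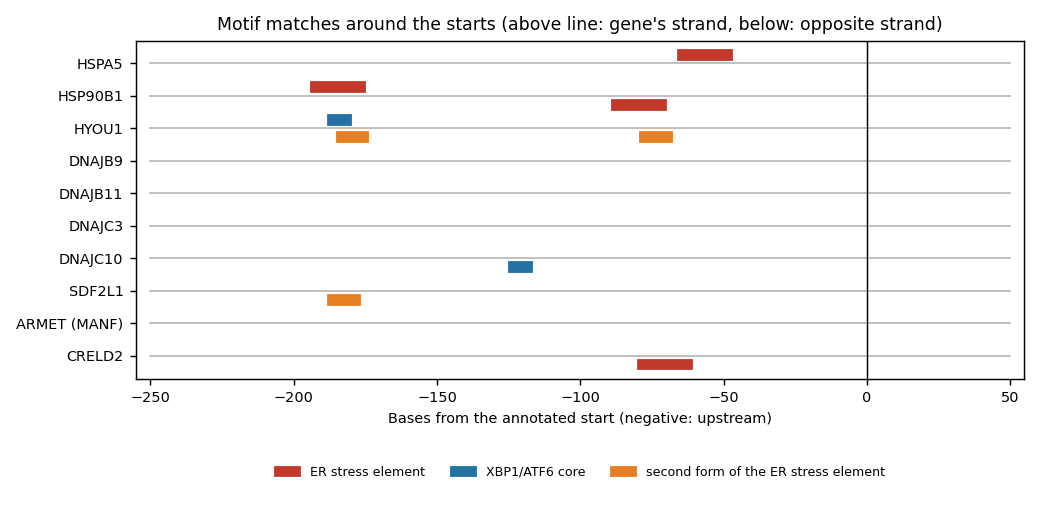
Matches to the searched motifs around the annotated start of each of the 10 genes, with distance from the start in bases on the x axis (negative is upstream). Bars above a line lie on the gene's strand and bars below it on the opposite strand. HSPA5, HSP90B1, HYOU1, SDF2L1 and CRELD2 hold an exact match to an ER stress element, HSP90B1 and HYOU1 2 each. Inexact copies were not searched for.

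Libraries held 7165377 to 11999050 counted reads, and the member with the fewest reads had 76 in its lowest library. Levels are given as CPM, the reads of a gene scaled to a common library size by TMM. Changes are log2 fold changes ± SE, with p-values from edgeR's quasi-likelihood test adjusted by Benjamini-Hochberg within each comparison over all 13881 genes, and a gene was called at an adjusted p under 0.05. All 7 B cell markers and all 5 markers of the activated B cell-like form examined were above 1 CPM on average in both lines, and the B cell markers summed to 2670 to 4410 CPM in TMD8 and 2440 to 3960 CPM in HBL1. T and NK cell markers summed to at most 0.372 CPM, myeloid markers to at most 3.46 CPM and stromal or epithelial markers to at most 24.9 CPM. Of 4 germinal centre markers, 3 averaged above 1 CPM in TMD8 and 1 in HBL1, and the list summed to 58 to 215 CPM in TMD8 and 126 to 254 CPM in HBL1. LMO2 averaged 91.3 CPM in TMD8 and 0.565 CPM in HBL1, and BCL6 35.2 and 170 CPM. Among plasma cell markers, PRDM1 averaged 222 CPM in TMD8 and 11.5 CPM in HBL1, SDC1 2.93 and 0.852 CPM, MGC29506 60.1 and 73.3 CPM, and TNFRSF17 9.19 and 46.3 CPM. The plasma cell list summed to 262 to 376 CPM in TMD8 with NGI-1 against 231 to 276 CPM with DMSO, and to 120 to 188 CPM against 81.2 to 148 CPM in HBL1. The part of these markers in the changes below was not tested.

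NGI-1 raised the same 9 of the 10 genes in both lines at all 3 times, and DNAJC10 was the member not called each time, in a single model of all 24 groups. At 3 h, 9 of 10 were higher in TMD8, where 0.771% of all tested genes were called in either direction, and 9 of 10 in HBL1, where 0.353% were. At 6 h the background was 4.33% in TMD8 and 1.13% in HBL1, again with 9 of 10 members higher. By 24 h it had grown to 30.7% and 19.4%, and 9 of 10 members were still higher. No member was lower. The median change of the 10 genes in TMD8 was 1.4, 1.49 and 1.28 at 3, 6 and 24 h, and in HBL1 it was 0.87, 1.16 and 0.79. Over all tested genes the median lay between 0 and 0.01. In bulk RNA, fewer cells of a type and less RNA per cell cannot be told apart.

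**Figure D2:**
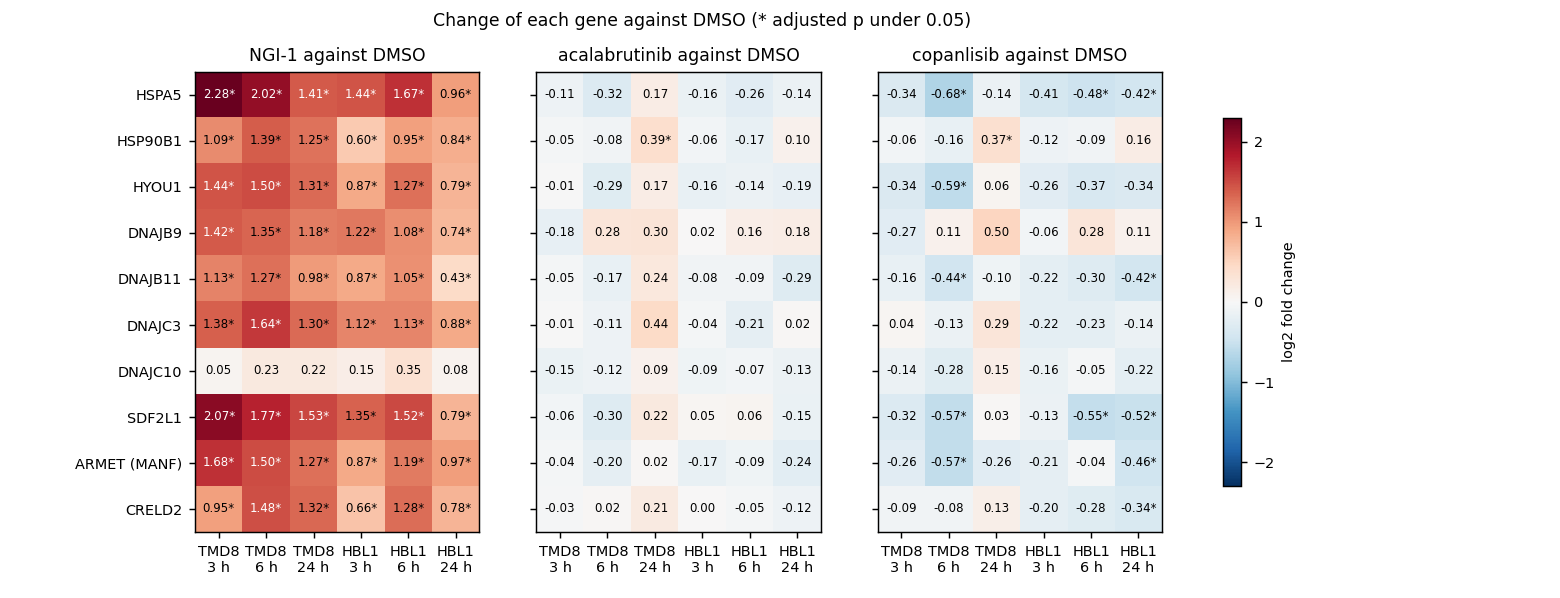
Log2 fold change of each gene against DMSO (colour and printed value) for NGI-1, acalabrutinib and copanlisib, by line and hours of treatment, with an asterisk where the adjusted p was under 0.05. With NGI-1 every row but DNAJC10 is marked in all 6 columns, from 0.43 for DNAJB11 in HBL1 at 24 h up to 2.28 for HSPA5 in TMD8 at 3 h.

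HSPA5, which encodes BiP, had the largest change of the 10 genes at 3 h in both lines. In TMD8 it stood at 4157 and 3787 CPM with NGI-1, against 893 and 742 CPM with DMSO. HBL1 had 4304 and 3725 CPM with NGI-1, against 1405 and 1557 CPM with DMSO. The 2 lines thus reached a like level with NGI-1, while DMSO levels were lower in TMD8, and NGI-1 and DMSO libraries did not overlap in either. The 3 h log2 change in TMD8 was 2.28 ± 0.14 (adjusted p = 7.61e-15), and HBL1 had 1.44 ± 0.14 (adjusted p = 7.74e-09). At 6 h NGI-1 libraries held 3278 and 3594 CPM in TMD8, against 865 and 834 CPM with DMSO, and 3479 and 4637 CPM in HBL1, against 1122 and 1422 CPM. At 24 h they held 1421 and 1298 CPM in TMD8, against 560 and 463 CPM, and 1403 and 1368 CPM in HBL1, against 724 and 705 CPM. HSPA5 with NGI-1 was thus lower at 24 h than at 3 h in both lines, and so was HSPA5 with DMSO.

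HSP90B1 (GRP94) is an ER member of the Hsp90 family with a restricted set of clients, among them Toll-like receptors and integrins. At 3 h it had 2247 and 1893 CPM with NGI-1 in TMD8, against 1061 and 885 CPM with DMSO. In HBL1 the 3 h libraries had 1999 and 1949 CPM with NGI-1, against 1200 and 1406 CPM with DMSO. Its largest change came at 6 h, at 1.39 ± 0.11 in TMD8 with an adjusted p of 1.55e-11 and 0.95 ± 0.11 in HBL1 with 2.26e-07, compared with 1.09 ± 0.11 and 0.60 ± 0.11 at 3 h. At 24 h the changes were 1.25 ± 0.11 and 0.84 ± 0.11. HYOU1 (GRP170), a large Hsp70 relative that also binds unfolded chains, had 366 and 282 CPM with NGI-1 at 3 h in TMD8, against 123 and 116 CPM with DMSO. HBL1 had 1538 and 1279 CPM with NGI-1, against 692 and 846 CPM with DMSO. DMSO libraries of HBL1 held more HYOU1 than TMD8 libraries with NGI-1 at any time. HYOU1 changed by 1.44 ± 0.15, 1.5 ± 0.15 and 1.31 ± 0.15 in TMD8 at 3, 6 and 24 h, and by 0.87 ± 0.14, 1.27 ± 0.14 and 0.79 ± 0.14 in HBL1, called each time.

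**Figure D3:**
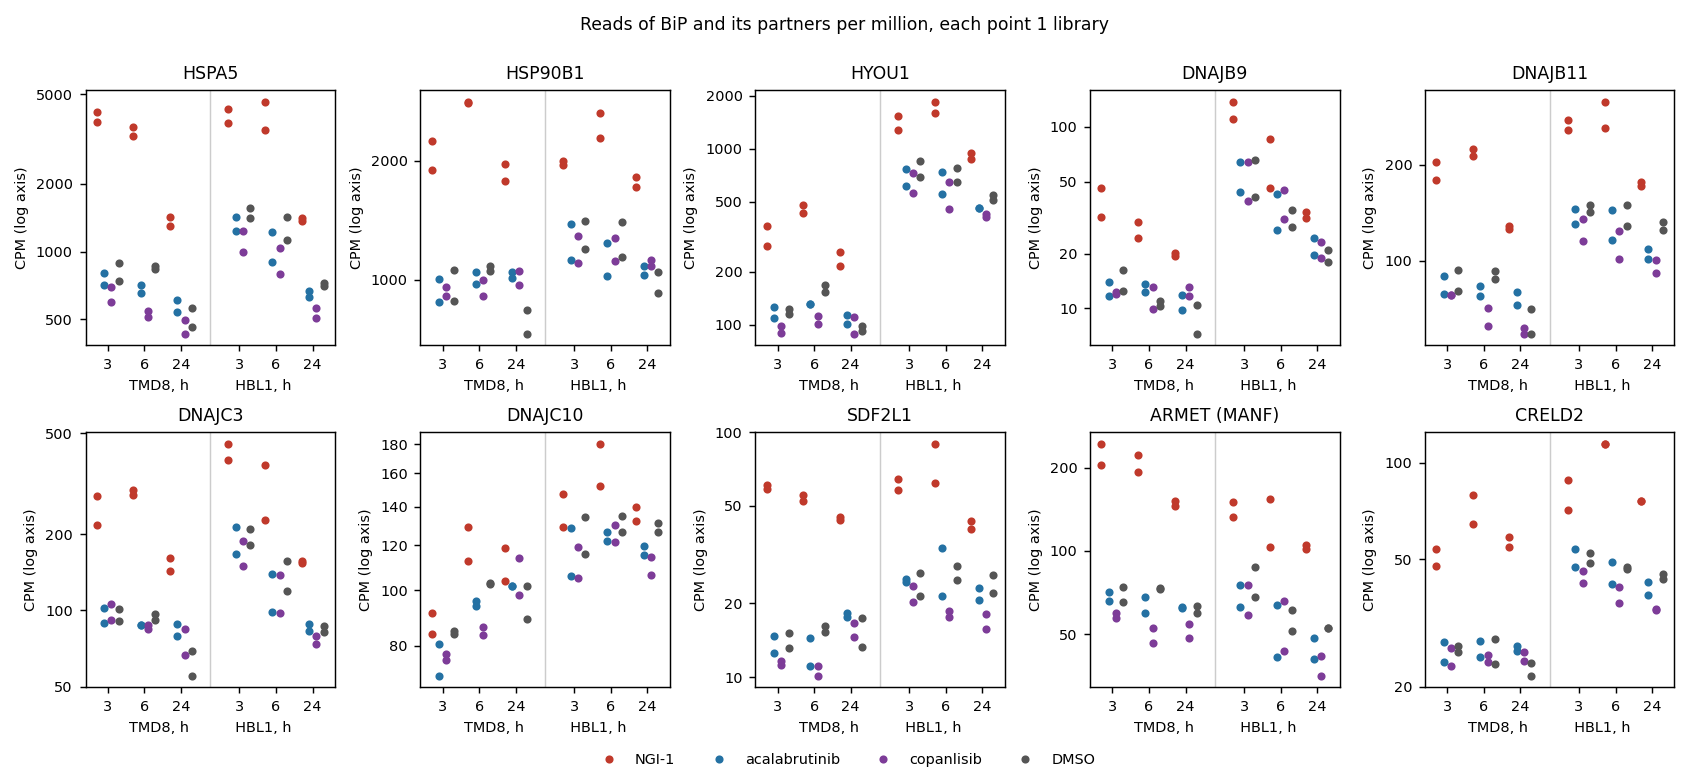
CPM of each gene on log axes in all 48 libraries, 1 point each, for TMD8 (left of each panel) and HBL1 (right) at 3, 6 and 24 h, coloured by compound. NGI-1 points stand above the DMSO points of their line and time in 9 panels, while in the DNAJC10 panel they overlap at 3 h and lie close by at 6 and 24 h.

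Among the J proteins, 3 of 4 rose with NGI-1. DNAJC3 (P58IPK), known as a BiP cofactor inside the ER, had 282 and 218 CPM with NGI-1 at 3 h in TMD8, against 101 and 91.1 CPM with DMSO, and 455 and 394 CPM in HBL1, against 182 and 210 CPM. Its change was 1.38 ± 0.18 in TMD8 and 1.12 ± 0.17 in HBL1 at 3 h, 1.64 ± 0.17 and 1.13 ± 0.17 at 6 h, and 1.30 ± 0.18 and 0.88 ± 0.18 at 24 h. DNAJB11 (ERdj3), which binds substrates itself and hands them to BiP, had 204 and 180 CPM with NGI-1 at 3 h in TMD8, against 93.6 and 80.7 CPM with DMSO. In HBL1 it had 276 and 257 CPM, against 142 and 150 CPM. DNAJB11 changed by 1.13 ± 0.11 and 0.87 ± 0.11 at 3 h, by 1.27 ± 0.11 and 1.05 ± 0.11 at 6 h and by 0.98 ± 0.11 and 0.43 ± 0.11 at 24 h in TMD8 and HBL1, so that HBL1 at 24 h was its smallest change. All 4 NGI-1 libraries lay above the DMSO libraries of their line at each time for both genes.

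DNAJB9 (ERdj4) is a J protein that brings BiP to the sensor IRE1 and to misfolded proteins bound for degradation. Its lowest library, with DMSO in TMD8 at 24 h, held the fewest reads of any member. In TMD8 it had 46.0 and 31.9 CPM with NGI-1 at 3 h, against 16.4 and 12.4 CPM with DMSO, and in HBL1 111 and 138 CPM, against 40.8 and 66 CPM. DNAJB9 changed by 1.42 ± 0.28 and 1.22 ± 0.22 at 3 h, by 1.35 ± 0.29 and 1.07 ± 0.24 at 6 h, and by 1.18 ± 0.31 and 0.74 ± 0.27 at 24 h, the last with an adjusted p of 0.0427. Its SE was the largest of the 10 genes in every one of these comparisons. With NGI-1 at 6 h in HBL1, its libraries stood apart from each other at 46.0 and 86.2 CPM, against 27.9 and 34.8 CPM with DMSO.

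DNAJC10 (ERdj5), a J protein with thioredoxin domains that opens disulfide bonds of proteins to be degraded, was the member not called in any of the 6 NGI-1 comparisons with DMSO by the model of 24 groups, though some of the alternatives called it. It had 91.5 and 83.9 CPM with NGI-1 at 3 h in TMD8, against 84.9 and 84 CPM with DMSO. HBL1 at 3 h had 129 and 147 CPM, against 116 and 134 CPM, and in both lines the groups overlapped. The 95% interval of its log2 change at 3 h was -0.154 to 0.262 in TMD8 and -0.05 to 0.341 in HBL1. At 6 h the libraries no longer overlapped, with 129 and 113 CPM with NGI-1 in TMD8, against 103 and 103 CPM, and 152 and 180 CPM in HBL1, against 126 and 135 CPM. Those log2 changes were 0.23 ± 0.10 (adjusted p = 0.214) and 0.35 ± 0.10 (adjusted p = 0.0629). At 24 h the values were 0.22 ± 0.10 and 0.08 ± 0.10. The interval's upper end at 6 h in HBL1, 0.544, lay below the change of each other member there.

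SDF2L1, ARMET and CRELD2 are smaller ER proteins. SDF2L1 works with DNAJB11 to keep misfolding proteins soluble. It had 60.7 and 58.5 CPM with NGI-1 at 3 h in TMD8, against 15.1 and 13.2 CPM with DMSO, and 64.1 and 58.1 CPM in HBL1, against 21.3 and 26.6 CPM. As with HSPA5, the lines had like levels with NGI-1 and the DMSO level was lower in TMD8. SDF2L1 changed by 2.07 ± 0.17, 1.77 ± 0.16 and 1.53 ± 0.16 in TMD8 at 3, 6 and 24 h, and by 1.35 ± 0.15, 1.51 ± 0.15 and 0.79 ± 0.16 in HBL1. In the order of changes it was next after HSPA5 at 3 and 6 h in both lines. ARMET (MANF), which binds the ATPase domain of BiP and can also be secreted, had 245 and 204 CPM with NGI-1 at 3 h in TMD8, against 74.3 and 65.5 CPM with DMSO. HBL1 had 133 and 150 CPM, against 67.9 and 87.2 CPM, so that here the NGI-1 level was higher in TMD8. Its changes were 1.68 ± 0.16, 1.5 ± 0.16 and 1.27 ± 0.16 in TMD8, and 0.87 ± 0.16, 1.19 ± 0.16 and 0.97 ± 0.17 in HBL1.

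CRELD2, a cysteine-rich ER protein with EGF-like domains, had a smaller value at 3 h than at 6 h in both lines. At 3 h it had 54 and 47.5 CPM with NGI-1 in TMD8, against 26.9 and 25.7 CPM with DMSO, and 88.4 and 71.3 CPM in HBL1, against 48.6 and 52.4 CPM. At 6 h the values were 79.6 and 64.4 CPM with NGI-1 in TMD8, against 28.1 and 23.5 CPM, and 114 and 115 CPM in HBL1, against 46.6 and 47.4 CPM. CRELD2 changed by 0.94 ± 0.12 and 0.66 ± 0.11 at 3 h, by 1.48 ± 0.12 and 1.28 ± 0.11 at 6 h and by 1.32 ± 0.12 and 0.78 ± 0.11 at 24 h in TMD8 and HBL1. NGI-1 and DMSO libraries did not overlap at any time. The difference between its 6 h and 3 h changes was not tested.

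Some of these calls rested on single libraries or on the fit. With each line fitted alone, DNAJB9 in HBL1 was not called at 3, 6 or 24 h (adjusted p = 0.0715, 0.083 and 0.108), nor was ARMET in HBL1 at 3 h (0.0765), and DESeq2 did not call DNAJB9 in HBL1 at 24 h (0.0604). HSPA5 and SDF2L1 stayed called in all 6 comparisons under each alternative run, leave-outs included. DNAJB9 lost its call in TMD8 without NGI-1 replicate 1 or DMSO replicate 2 at 3 h, without NGI-1 or DMSO replicate 1 at 6 h, and without DMSO replicate 2 at 24 h. In HBL1 DNAJB9 lost it without NGI-1 replicate 2 or DMSO replicate 1 at 3 and 6 h, with a change of 0.55 (adjusted p = 0.764) without NGI-1 replicate 2 at 6 h, and without any of the 4 libraries at 24 h. In HBL1 at 3 h the 9 calls became 4 without DMSO replicate 1, and HSPA5, DNAJB11, DNAJC3 and SDF2L1 were the ones kept. There HSP90B1 was at 0.49 (adjusted p = 0.403), HYOU1 at 0.73 (0.132), ARMET at 0.70 (0.403) and CRELD2 at 0.60 (0.0718). ARMET and CRELD2 in HBL1 at 3 h also lost their calls without NGI-1 replicate 2 and NGI-1 replicate 1, at adjusted p = 0.0605 and 0.0565. DNAJC3 in HBL1 at 6 h was 0.72 (adjusted p = 0.0629) without NGI-1 replicate 2, and DNAJB11 in HBL1 at 24 h was 0.39 (adjusted p = 0.0605) without DMSO replicate 1. DNAJC10 was called in HBL1 at 6 h without NGI-1 replicate 1 (0.45, adjusted p = 0.0319) and without the filter on low counts (0.34, adjusted p = 0.0453).

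The 10 genes together took a larger share of the counted reads with NGI-1. At 3 h it was 0.747% and 0.651% with NGI-1 in TMD8, against 0.238% and 0.204% with DMSO, and 0.884% and 0.804% in HBL1, against 0.382% and 0.447%. At 24 h it was 0.427% and 0.397% in TMD8, against 0.182% and 0.161%, and 0.488% and 0.503% in HBL1, against 0.264% and 0.282%. NGI-1 shares exceeded DMSO shares in every library of the same line and time. HSPA5 alone made up 53.6% and 55.8% of these reads with NGI-1 at 3 h in TMD8, against 35.9% and 35.1% with DMSO. In HBL1 it made up 47.3% and 45.6%, against 35.9% and 34.3%. By 24 h the HSPA5 part was 33% in both NGI-1 libraries of TMD8, against 30.4% and 28.9%, and 29.4% and 28.7% in HBL1, against 27.1% and 25.7%. In HBL1 at 6 h the replicate 2 libraries had a higher share than replicate 1 with every compound: 1.06% against 0.842% with NGI-1, 0.397% against 0.305% with acalabrutinib, 0.371% against 0.292% with copanlisib and 0.44% against 0.344% with DMSO. The part of that shared shift in the HBL1 results at 6 h was not tested, and the fits that model the replicate number are given with the alternatives.

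**Figure D4:**
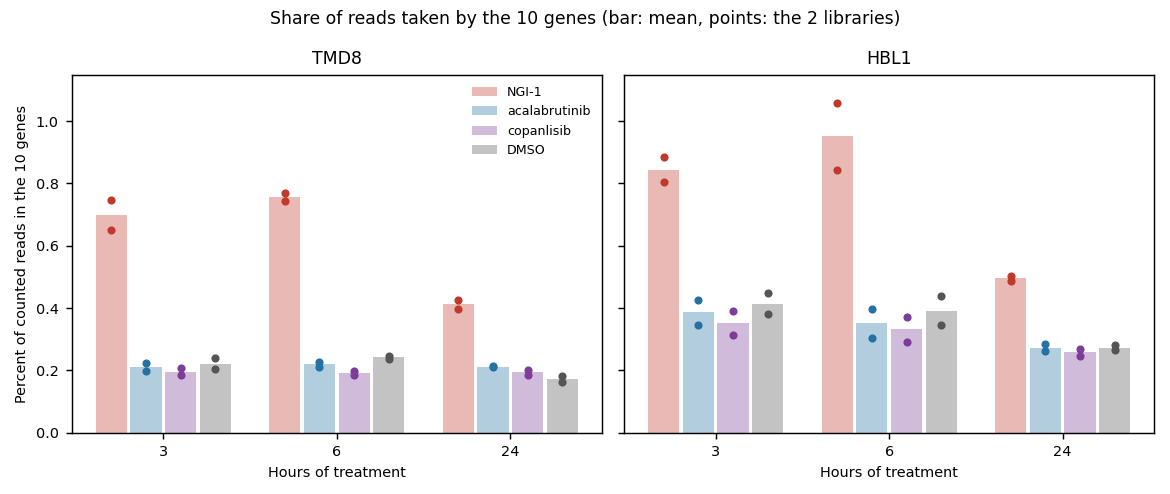
Percent of counted reads in the 10 genes by hours of treatment in TMD8 (left) and HBL1 (right), with a bar for the mean and a point for each of the 2 libraries. NGI-1 bars stand above the other compounds at each time, and the highest point is 1.06% in HBL1 at 6 h.

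Levels were compared between genes per kilobase of annotated exon, since a longer gene yields more reads. With NGI-1 at 3 h in TMD8, HSPA5 led with 1020 CPM per kilobase and HSP90B1 followed with 723, while with DMSO HSP90B1 led with 340 and HSPA5 had 209. In HBL1 HSPA5 had 1030 and HSP90B1 688 CPM per kilobase with NGI-1, and with DMSO they had 379 and 454. At 3 h HSPA5 was thus above HSP90B1 on this scale with NGI-1 and below it with DMSO in both lines, given as a description without a test. ARMET came next in TMD8 with NGI-1, at 194 CPM per kilobase, and HYOU1 next in HBL1, at 298. DNAJB9 was at 14.4 and 45.7 CPM per kilobase with NGI-1 in TMD8 and HBL1. DNAJC10 is left out of this order because its annotated exons, 21040 bases, are far longer than those of the other genes, and the lengths come from another annotation than the one the reads were counted on.

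Whether the NGI-1 effect differed between lines was tested as the effect in TMD8 minus the effect in HBL1. At 3 h edgeR called 0 of 10 genes, with 5 at an unadjusted p under 0.05 and 0 by DESeq2, against a background of 0.00720% called. The largest difference was in HSPA5, 0.84 ± 0.19 (95% interval 0.455 to 1.23, adjusted p = 0.233), then ARMET, 0.81 ± 0.22, and SDF2L1, 0.72 ± 0.23. Differences were positive for 9 of 10 genes at 3 h, which means a larger change in TMD8. At 6 h edgeR called 0 of 10 (background 0.0216%), with 2 at an unadjusted p under 0.05 and 0 by DESeq2. At 24 h 1 of 10 was called (background 2.51%), DNAJB11, at 0.54 ± 0.16 with an adjusted p of 0.0497. These counts depended on the settings: without the filter on low counts 4, 1 and 5 genes were called at 3, 6 and 24 h, those at 3 h being HSPA5, HSP90B1, HYOU1 and ARMET. A replicate term within line and time called the same genes and SDF2L1 at 3 h, at adjusted p = 1.22e-11 (HSPA5) to 0.0314 (SDF2L1). Its counts at 6 and 24 h are given with the alternatives. DNAJB11 at 24 h lost its call with RLE size factors, with a stricter filter and in 7 of the 8 fits that left out 1 library, all but the one without DMSO replicate 1 of TMD8.

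**Figure D5:**
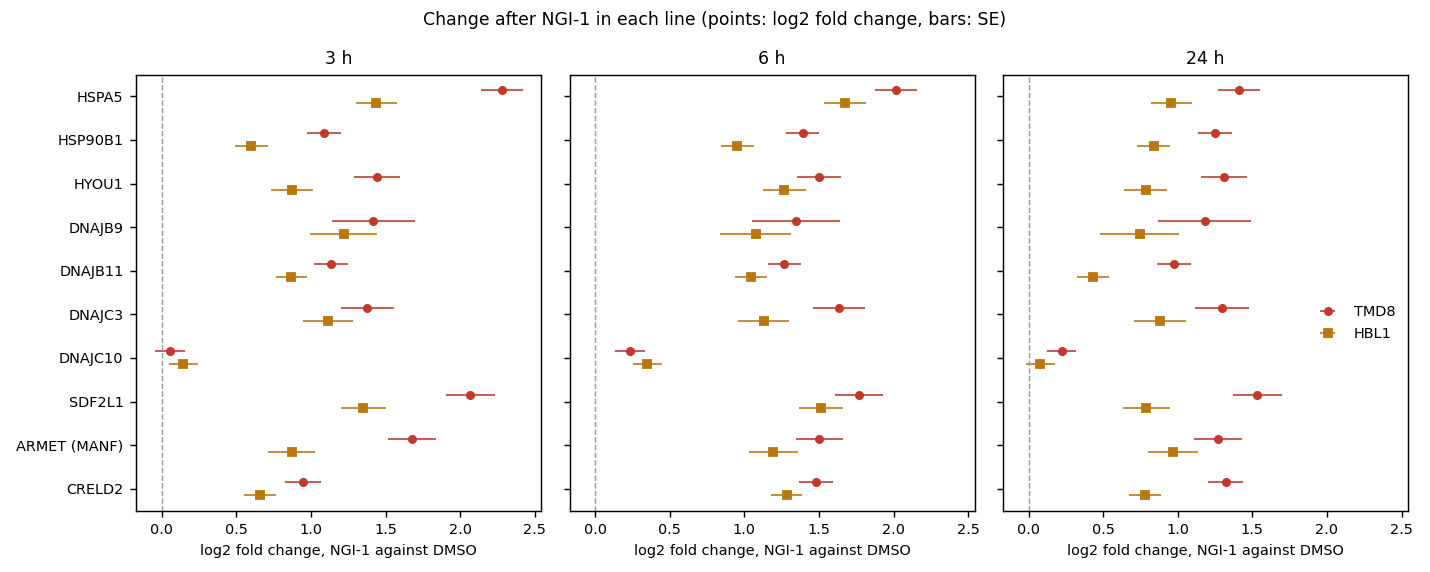
Log2 fold change after NGI-1 against DMSO (x axis, points with SE bars) of each gene in TMD8 (circles) and HBL1 (squares) at 3, 6 and 24 h. TMD8 points lie to the right of HBL1 points for 9 of 10 genes at 3 h, while DNAJC10 lies left of all the other genes at each time.

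Whether the NGI-1 effect differed between 24 h and 3 h was tested as the later effect minus the earlier. In TMD8 1 of 10 genes was called, against a background of 12.2%: the effect on HSPA5 was smaller at 24 h by 0.87 ± 0.19 on the log2 scale (difference -0.87, adjusted p = 0.00169). It kept this call without each library in turn. In HBL1 the difference for HSPA5 was -0.48 ± 0.19 (adjusted p = 0.143), and edgeR called 0 of 10, with 3 at an unadjusted p under 0.05 and 0 by DESeq2 (background 4.90%). HSP90B1 differed by 0.16 ± 0.16 in TMD8 (95% interval -0.155 to 0.477) and by 0.24 ± 0.16 in HBL1 (-0.076 to 0.555). CRELD2 differed by 0.38 ± 0.17 in TMD8 and 0.12 ± 0.15 in HBL1, and SDF2L1 by -0.53 ± 0.24 and -0.56 ± 0.22. HSPA5 and SDF2L1 thus had negative differences in both lines and HSP90B1 and CRELD2 positive ones, and HSPA5 in TMD8 alone passed the threshold.

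The vehicle libraries themselves changed over the time course. In DMSO at 24 h, against DMSO at 3 h, 4 of 10 genes were lower in TMD8 (background 32.8% called in either direction) and 6 of 10 in HBL1 (background 40.0%). Of all 13881 tested genes, 2209 were called lower in TMD8 and 2663 in HBL1. In TMD8 HSPA5 changed by -0.68 ± 0.14 (adjusted p = 0.000169). The HBL1 change was -1.05 ± 0.14 (adjusted p = 6.12e-08). DNAJC3 changed by -0.63 ± 0.18 in TMD8 and -1.21 ± 0.18 in HBL1, and DNAJB9 by -1.45 ± 0.26 in HBL1, all called. DNAJB11 (-0.43) and HSP90B1 (-0.31) were the others called in TMD8, and ARMET (-0.56), HYOU1 (-0.55) and HSP90B1 (-0.40) those in HBL1. SDF2L1, at 0.11 ± 0.19 in TMD8, was not called in either line. In TMD8 the 4 calls became 1, HSPA5, without DMSO replicate 1 at 3 h or without DMSO replicate 2 at 24 h. Each compound was therefore set against DMSO of the same time.

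In the model of 24 groups, acalabrutinib changed few of these genes at the threshold. At 3 h edgeR called 0 of 10 in TMD8 (background 0.389%) and 0 of 10 in HBL1 (background 0.245%), with 0 at an unadjusted p under 0.05 and 0 by DESeq2 in each line. At 6 h it called 0 of 10 in TMD8 (background 4.64%), with 1 at an unadjusted p under 0.05, and 0 of 10 in HBL1 (background 5.65%), with 0, and DESeq2 called 0 in both. HSPA5 at 6 h had 708 and 653 CPM with acalabrutinib in TMD8, against 865 and 834 CPM with DMSO, a change of -0.32 ± 0.14 (adjusted p = 0.217). This HSPA5 change was called without the filter on low counts (adjusted p = 0.00154) and with each line fitted alone (0.0409). It was also called with a replicate term within line and time (2.46e-05). In HBL1 at 6 h HSPA5 changed by -0.259 ± 0.135 (adjusted p = 0.319). There it was called without the filter (0.0237) and with that replicate term (0.000404). At 24 h 1 of 10 was called in TMD8 (background 31.0%) and 0 of 10 in HBL1 (background 19.0%), with 1 in HBL1 at an unadjusted p under 0.05 and 0 by DESeq2. The called gene was HSP90B1, with 1046 and 1012 CPM with acalabrutinib, against 839 and 732 CPM with DMSO, a change of 0.39 ± 0.11 (adjusted p = 0.00588). It was not called without DMSO replicate 2 (0.29, adjusted p = 0.121). In TMD8 at 24 h all 10 changes were positive, with a median of 0.22.

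Copanlisib lowered some of them. At 3 h edgeR called 0 of 10 in TMD8 (background 1.76%) and 0 of 10 in HBL1 (background 2.10%), with 2 at an unadjusted p under 0.05 in each line and 0 by DESeq2. At 6 h 5 of 10 were lower in TMD8, against a background of 14.6%, and 2 of 10 in HBL1, against 9.53%. HSPA5 had 546 and 512 CPM with copanlisib at 6 h in TMD8, against 865 and 834 CPM with DMSO, and 791 and 1032 CPM in HBL1, against 1122 and 1422 CPM. These libraries did not overlap. The change in TMD8 was -0.68 ± 0.14 (adjusted p = 0.000399), and HBL1 had -0.48 ± 0.14 (adjusted p = 0.0165). The others called in TMD8 were HYOU1 (-0.59), SDF2L1 (-0.57), ARMET (-0.57) and DNAJB11 (-0.44), and in HBL1 SDF2L1 (-0.55). DNAJC10 in TMD8 missed the threshold at -0.28 (adjusted p = 0.0558), and it was called lower with RLE factors, without the filter, with the stricter filter, by DESeq2 and with each line alone (adjusted p = 0.0187 to 0.0476).

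At 24 h with copanlisib the lines differed in which genes passed. In HBL1 5 of 10 were lower, against a background of 30.5%: SDF2L1 (-0.52), ARMET (-0.46), HSPA5 (-0.42), DNAJB11 (-0.42) and CRELD2 (-0.34). In TMD8 1 of 10 was called, against 31.8%, and it was higher: HSP90B1, with 1055 and 971 CPM with copanlisib, against 839 and 732 CPM with DMSO (0.37 ± 0.11, adjusted p = 0.00951). HSPA5 in HBL1 had 506 and 560 CPM with copanlisib, against 724 and 705 CPM with DMSO. The difference of the copanlisib effect between lines at 24 h was called for 0 of 10 genes by edgeR, with 3 at an unadjusted p under 0.05 and 0 by DESeq2 (background 4.18%). The same difference for acalabrutinib was called for 1 of 10 (background 4.25%), DNAJB11, at 0.53 ± 0.16 with an adjusted p of 0.0498, a call kept in 1 of the 8 fits that left out 1 library (without DMSO replicate 1 of TMD8). Of the copanlisib calls, the 5 in TMD8 at 6 h became 1, HSPA5, without DMSO replicate 1 or copanlisib replicate 2, and 3 without DMSO replicate 2. Leaving out copanlisib replicate 1 or DMSO replicate 2 of HBL1 at 6 h gave 0 calls for its 2, leaving out DMSO replicate 1 gave 1 and leaving out copanlisib replicate 2 gave 3. The 5 at 24 h there became 1 without DMSO replicate 1 or copanlisib replicate 1, 2 without copanlisib replicate 2, 3 without DMSO replicate 2 and 2 by DESeq2, while HSP90B1 in TMD8 lost its call without copanlisib replicate 1 or DMSO replicate 2.

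NGI-1 was also set directly against each kinase inhibitor at 24 h, at doses that differ. Against acalabrutinib, 8 of 10 genes were higher with NGI-1 in TMD8 (background 1.31%) and 8 of 10 in HBL1 (background 3.18%). Against copanlisib the counts were again 8 of 10 in TMD8 (background 1.43%) and 8 of 10 in HBL1 (background 5.00%). DNAJB9 and DNAJC10 were the pair not called in each of the 4, and this depended on the filter for DNAJB9, which was called in all 4 without the filter on low counts (adjusted p = 1.62e-05 and 0.00653 against acalabrutinib and 0.00382 and 0.00088 against copanlisib in TMD8 and HBL1). With each line fitted alone, DNAJB9 was called against acalabrutinib in TMD8 (adjusted p = 0.00827). HSPA5 differed from acalabrutinib by 1.24 ± 0.14 in TMD8 and 1.09 ± 0.14 in HBL1, and from copanlisib by 1.55 ± 0.14 and 1.38 ± 0.14. DNAJB9 differed by 0.88 ± 0.31 and 0.57 ± 0.26 from acalabrutinib and by 0.68 ± 0.30 and 0.64 ± 0.26 from copanlisib, with adjusted p of 0.213, 0.326, 0.467 and 0.185 in that order with the filter. DNAJC3 against acalabrutinib lost its call in TMD8 without NGI-1 replicate 1 or acalabrutinib replicate 2 and in HBL1 without acalabrutinib replicate 1.

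With DMSO alone, averaged over the 3 times, 9 of 10 genes were lower in TMD8 than in HBL1, in a comparison that called 78.5% of all tested genes. HYOU1 showed the widest gap, with 92.8 to 168 CPM over the 6 DMSO libraries of TMD8 and 508 to 846 CPM over those of HBL1 (-2.43 ± 0.09, adjusted p = 6.27e-26). DNAJB9 had 7.25 to 16.4 CPM in TMD8 and 17.9 to 66 CPM in HBL1 (-1.53 ± 0.17). The other called differences were CRELD2 (-0.92), DNAJB11 (-0.78), SDF2L1 (-0.72), DNAJC3 (-0.67), HSPA5 (-0.64), DNAJC10 (-0.45) and HSP90B1 (-0.33). ARMET was the exception, at 59.8 to 74.3 CPM in TMD8 and 51.2 to 87.2 CPM in HBL1 (0.15 ± 0.10, adjusted p = 0.143). The lines are different cultures with many other differences, which cannot be told apart from this one. HYOU1 shares 14.1% of its annotated exon bases with an antisense gene, DNAJB11 15.9% with TBCCD1 on the opposite strand and 18.8% with another gene on its own, and DNAJB9 6.74% with THAP5 on the opposite strand. Whether counting used strand is not given in the sources used here.

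Other genes of the same pathways were counted from lists, and genes are named by the size of their change at 3 h in TMD8. Of 11 sensors and factors of the unfolded protein response, 5, 7 and 7 rose with NGI-1 at 3, 6 and 24 h in TMD8 and 3, 4 and 4 in HBL1, and none fell. The background at these times was 0.771%, 4.33% and 30.7% in TMD8 and 0.353%, 1.13% and 19.4% in HBL1, for this list and the 3 that follow. DDIT3 (CHOP), a factor downstream of PERK, changed by 2.19 ± 0.27 in TMD8 and 1.26 ± 0.27 in HBL1 at 3 h, and XBP1, the factor whose mRNA IRE1 splices, by 1.73 ± 0.13 and 0.54 ± 0.12. Gene counts do not show splicing. Of 12 genes of ER-associated degradation, 6, 9 and 11 rose in TMD8 and 3, 6 and 5 in HBL1. HERPUD1, a scaffold of the degradation complex, changed by 1.75 ± 0.15 and 1.04 ± 0.14 at 3 h, and DERL3, of the Derlin family, by 1.89 ± 0.24 and 1.05 ± 0.22. Both were called in TMD8 at all 3 times. In HBL1 HERPUD1 was called at 3 and 6 h but not at 24 h (0.36 ± 0.15, adjusted p = 0.0771).

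Of 16 ER lectins, isomerases and oxidases, 7, 10 and 11 rose with NGI-1 at 3, 6 and 24 h in TMD8, where 2 fell at 24 h, and 4, 10 and 7 rose in HBL1. PDIA4, a disulfide isomerase, changed by 1.34 ± 0.12 and 0.91 ± 0.12 at 3 h in TMD8 and HBL1, and CALR, a lectin that binds N-glycans carrying glucose, by 0.84 ± 0.09 and 0.60 ± 0.09. Of 13 other partners of BiP and paralogs of the members, 2, 4 and 5 rose in TMD8 and 1, 4 and 5 in HBL1. FICD, the enzyme that attaches AMP to BiP and removes it, changed by 1.55 ± 0.37 and 1.4 ± 0.30 at 3 h, and CRELD1, the paralog of CRELD2, by 1.31 ± 0.23 and 0.70 ± 0.20, the last with an adjusted p of 0.162. Medians of these 4 lists at 3 h in TMD8 were 0.67, 0.56, 0.51 and 0.14 in the order given here, against 1.4 for the 10 genes and 0 for all tested genes.

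The kinase inhibitors also changed genes of these lists at 24 h, and the counts differed between lists. The backgrounds printed with the first list hold for each. Of the 11 sensors and factors, acalabrutinib raised 5 and lowered 2 in TMD8 (background 31.0%) and raised 2 and lowered 1 in HBL1 (background 19.0%), and copanlisib raised 6 and lowered 1 in TMD8 (31.8%) and raised 3 and lowered 1 in HBL1 (30.5%). Of the 12 degradation genes, acalabrutinib raised 5 in TMD8 and raised 1 and lowered 1 in HBL1. Copanlisib raised 5 in TMD8 and raised 2 and lowered 1 in HBL1. Of the 16 lectins, isomerases and oxidases, acalabrutinib raised 4 and lowered 3 in TMD8 and lowered 2 in HBL1. Copanlisib raised 2 and lowered 3 in TMD8 and raised 1 and lowered 7 in HBL1. Of the 13 other partners, acalabrutinib raised 4 in TMD8 and raised 2 and lowered 1 in HBL1. Copanlisib raised 3 and 1. NGI-1 set against acalabrutinib gave 3 of the 11 sensors and factors higher in TMD8 and 0 in HBL1, by edgeR. Against copanlisib it gave 2 in TMD8 and 0 in HBL1. In HBL1, 3 and 4 of them had an unadjusted p under 0.05 in these 2 comparisons, all higher with NGI-1, and DESeq2 called 1 and 0. Of the 12 degradation genes, 5 were higher with NGI-1 than with acalabrutinib in TMD8 and 3 in HBL1, and against copanlisib 5 and 4. Of the 16 lectins, isomerases and oxidases, the counts were 9 and 7 against acalabrutinib and 10 and 8 against copanlisib, and of the 13 other partners and paralogs 1 and 2, then 2 and 1. The background of these direct comparisons was 1.31% to 5.00%.

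The genes whose pattern was most like that of HSPA5 were found by Pearson's r of mean log2 CPM over the 24 groups, after each line's own mean was subtracted, among 8867 genes. DNAJB11 (0.979), HYOU1 (0.968), DNAJC3 (0.963) and ARMET (0.958) were highest among the members, DNAJB9 was at 0.899 and DNAJC10 at 0.484. Outside the list the closest were PDIA6 (0.964), ATP2A2 (0.952), SEL1L (0.948), HERPUD1 (0.947), RPN1 (0.945), DDOST (0.936), TMED5 (0.934) and PDIA3 (0.925). ATP2A2 encodes the ER calcium pump SERCA2, and RPN1 and DDOST encode subunits of oligosaccharyltransferase. The 24 groups come from the same lines and time course, so these values are descriptions.

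Beyond the 10 genes, 39 symbols had an ER stress element of either form in their window, of which 31 were in the count table and 24 were tested. With NGI-1, 6, 10 and 10 of the 24 rose in TMD8 at 3, 6 and 24 h and 6, 10 and 8 in HBL1, beside the same backgrounds of 0.771%, 4.33% and 30.7% in TMD8 and 0.353%, 1.13% and 19.4% in HBL1. At 24 h 2 fell in TMD8 and 1 in HBL1. The 6 in TMD8 at 3 h, named after their values were seen, were HERPUD1, XBP1, FICD, CALR, CANX and PDIA6, which also stand in the lists above. Medians over the 24 genes were 0.31, 0.38 and 0.26 in TMD8 and 0.21, 0.34 and 0.16 in HBL1. Within the 10 genes, the 5 with an element changed in TMD8 at 3 h by 2.28 (HSPA5), 2.07 (SDF2L1), 1.44 (HYOU1), 1.09 (HSP90B1) and 0.945 (CRELD2, the smallest called change). The others, with no exact match to an ER stress element in their windows, changed by 1.68 (ARMET), 1.42 (DNAJB9), 1.38 (DNAJC3), 1.13 (DNAJB11) and 0.05 (DNAJC10, not called).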

How the data were processed

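RNA-seq of 48 libraries was deposited by the authors as 1 table of whole-number read counts per gene. HTSeq, a read counter, is named in the submitters' processing notes, and the aligner and the strand setting are not given in the sources used here. Genes without an identifier (3449) held 0.815% of the reads. From the counts, edgeR 4.0.16 (R 4.3.3) scaled libraries by TMM, kept genes by its filter on low counts and fitted 1 quasi-likelihood model with a term for each of the 24 groups (24 residual degrees of freedom, biological coefficient of variation 7.34%). Line and time differences are contrasts of that model. Replicates of a group differed beyond sampling noise (chi-square per degree of freedom 2.21 to 6.83). The members and the lists were chosen with earlier results of these data known. The named genes are all members, up to 4 called genes per list with the largest change after NGI-1 at 3 h in TMD8, and the 8 genes most like HSPA5 among those whose mean log2 CPM reached 3. HSPD1 and HSPA8 were named outside this rule, since 0 chaperones outside the ER were called after NGI-1 at 3 h in TMD8. Alternatives were RLE factors, 2 filters, DESeq2 1.42.0, each line alone, 2 replicate blocks and leaving out each library. DESeq2 counts of the lists at 24 h were added after the data were seen. Promoter windows come from RefSeq (GRCh38.p14), and all 10 members matched. The fits were tested on simulated data.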

Additional observations from a re-analysis of the deposited data

Results flagged for a closer look

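A difference between the lines passed the test for DNAJB11, the J protein that hands substrates to BiP, at 24 h with each of 2 compounds. With NGI-1 the log2 change in TMD8 minus that in HBL1 was 0.54 (edgeR's adjusted p = 0.0497), and with acalabrutinib it was 0.53 (adjusted p = 0.0498). The DNAJB11 level was 129 and 126 CPM with NGI-1, 80.1 and 72.7 CPM with acalabrutinib and 70.6 and 59.2 CPM with DMSO in TMD8, and 176 and 171, 102 and 109, and 125 and 132 CPM in HBL1 in the same order. Both comparisons share the DMSO libraries, so they are not independent of each other. Each call was kept in 1 of the 8 fits that left out 1 library.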

How the results depend on the processing

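No call changed sign under any alternative run. Of 122 calls of members in the 32 comparisons, RLE size factors kept 119, the stricter filter 119, no filter 121, DESeq2 118 and each line fitted alone 105 of 111, and 88 held without each library in turn. Members called without the filter on low counts were 2 and 1 for acalabrutinib at 6 h in TMD8 and HBL1 and 2 in TMD8 at 24 h. For copanlisib they were 2 and 1 at 3 h in TMD8 and HBL1, 4 in HBL1 at 6 h and 3 in TMD8 at 24 h. For the NGI-1 difference between lines they were 4, 1 and 5 at 3, 6 and 24 h, and for the NGI-1 difference between 24 and 3 h 2 in TMD8 and 1 in HBL1; the cause was not tested. With each line fitted alone, acalabrutinib in TMD8 had 1 at 6 h and 2 at 24 h, copanlisib in HBL1 at 6 h had 1 and the NGI-1 time difference in TMD8 had 2. DESeq2 called 2 for copanlisib in HBL1 at 24 h. RLE factors and the stricter filter each gave 0 for the NGI-1 and for the acalabrutinib line difference at 24 h.

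Libraries with the same replicate number deviated together with a correlation of 0.047 to 0.237 over 18 comparisons of 2 number pairs each. For 26 libraries the closest match had their number, line and time but another compound. For 22 libraries it was their fellow replicate, and for 0 it lay elsewhere. The model of 24 groups has no term for the replicate number. The labels give the number no meaning, and what same-numbered libraries share beyond it was not tested. The replicate block called DNAJC10 for NGI-1 in HBL1 at 6 h (0.35, adjusted p = 0.035), for NGI-1 against copanlisib in HBL1 (0.0459) and for copanlisib in TMD8 at 6 h (0.0419). The replicate block within line and time called DNAJC10 for NGI-1 in HBL1 at 6 h (2.63e-05) and in TMD8 at 6 and 24 h (0.00786 and 0.00404), for NGI-1 against acalabrutinib and copanlisib in HBL1 (0.0182 and 0.000248) and for copanlisib in TMD8 at 6 h (0.000739). It called DNAJB9 in all 4 comparisons of NGI-1 with a kinase inhibitor, at 7.19e-05 to 0.0024. The replicate block kept all 122 calls, with 1 member called for acalabrutinib in HBL1 at 24 h and 3 for the NGI-1 line difference at 24 h. With the replicate block within line and time, all 122 calls were kept too. It called 2 and 3 members for acalabrutinib at 6 h in TMD8 and HBL1 and 4 and 3 at 24 h. Copanlisib had 3 and 4 at 3 h, 6 in HBL1 at 6 h, and 5 and 8 at 24 h. The same replicate block gave 5, 3 and 7 for the NGI-1 line difference at 3, 6 and 24 h, 5 and 7 for those of acalabrutinib and copanlisib, 3 and 5 for the NGI-1 time difference in TMD8 and HBL1, and 7 for DMSO over time in TMD8.

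Leaving out 1 library at a time gave 4 to 9 members called for NGI-1 in HBL1 at 3 h and 7 to 10 in the other NGI-1 comparisons with DMSO. It gave 0 to 1 for acalabrutinib in TMD8 at 24 h. Copanlisib had 1 to 4 in TMD8 and 0 to 3 in HBL1 at 6 h, and 0 to 1 in TMD8 and 1 to 3 in HBL1 at 24 h. The line differences at 24 h had 0 to 1 for NGI-1 and for acalabrutinib, and DMSO over time in TMD8 had 1 to 4. Each group has 2 libraries, which limits the precision. Each printed SE is the size of the log2 change divided by the square root of the test's F statistic. It rests on a spread estimated over all 24 groups, not on the 2 libraries of a group alone.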

Other observations

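Chaperones outside the ER did not follow the ER genes. Of 20 tested cytosolic and mitochondrial chaperones and their helpers, 0 were higher with NGI-1 in any of the 6 comparisons, 0 also at an unadjusted p under 0.05, and 16 were lower in TMD8 and 14 in HBL1 at 24 h by edgeR's quasi-likelihood test, against 30.7% and 19.4% of all genes called in either direction. Their median log2 change at 24 h was -0.58 in TMD8 and -0.46 in HBL1. At 3 h 0 were lower in either line (6 in TMD8 and 1 in HBL1 at an unadjusted p under 0.05), and at 6 h 4 were lower in TMD8 and 0 in HBL1 (9 and 8). DESeq2, run on this list at 24 h only, called 15 lower with NGI-1 in TMD8 and 14 in HBL1, and 0 higher. HSPD1, the mitochondrial Hsp60, changed by -0.90 in TMD8 and -0.63 in HBL1 at 24 h, and HSPA8, the constitutive cytosolic Hsp70, by -0.67 and -0.57. With acalabrutinib at 24 h 16 and 15 were lower in TMD8 and HBL1, and with copanlisib 16 and 16. The compounds share their DMSO libraries, so these counts are not independent of each other. In DMSO itself, 13 of the 20 were higher at 24 h than at 3 h in TMD8 (background 32.8%) and 10 in HBL1 (background 40.0%). The medians of that change were 0.39 and 0.28, and 0 were lower. The part of this vehicle change in the 24 h differences was not tested.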
